A study of Pinus pinaster with 14 samples.

Results

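A set of 150 transcripts, of the 23493 in the deposited table, was higher in every library of growing root and shoot tissue than in any library of the other tissues of the maritime pine seedling. Maritime pine (Pinus pinaster) is a Mediterranean conifer. The 5 growing libraries were the apical meristem, the emerging needles, the cortex and the vascular tissue of the developing root, and the root meristem. The other 9 were mesophyll and vascular tissue of young needles and of cotyledons, cortex, vascular tissue and pith of the hypocotyl, and cortex and vascular tissue of the root. All came from untreated seedlings of the Oria provenance, grown in soil and taken at an age of 1 month. Tissue was cut out by laser microdissection (chosen cells are cut from a frozen section under a microscope), its RNA was amplified as cDNA, and the cDNA was read by pyrosequencing, with 1 library per tissue. The labels do not say how many seedlings gave a library or whether libraries shared seedlings. "Growing" is a name for the 5 libraries of the choice and is not a word of the labels.

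The choice used the measured values. Each normalised signal had 5 added and was put on the log2 scale, and the score of a transcript was its lowest value among the 5 growing libraries minus its highest among the other 9. A score above 0 means that no library of the other 9 reached any of the 5. In all, 311 transcripts had such a score, 1.32% of the table and 3.29% of the 9454 transcripts with reads in all 5 growing libraries. The opposite arrangement, all 5 below all 9, was found for 87 (0.370%). The 150 highest scores were kept, from 2.07 down to 0.35, with a median of 0.62. A further condition, which leaves out transcripts far higher in the 3 root tip libraries than in the 2 of the shoot tip, removed 79 transcripts of the table but 0 of the 311. Since the growing libraries were compared with the other 9 to choose the members, that difference is described here and not tested. Leaving out a library can only raise a score or keep it. The number with a score above 0 rose most without the apical meristem (525), emerging needles (560) or root cortex (529). The 150 highest scores then still held 87, 76 and 83 of the members.

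**Figure D1:**
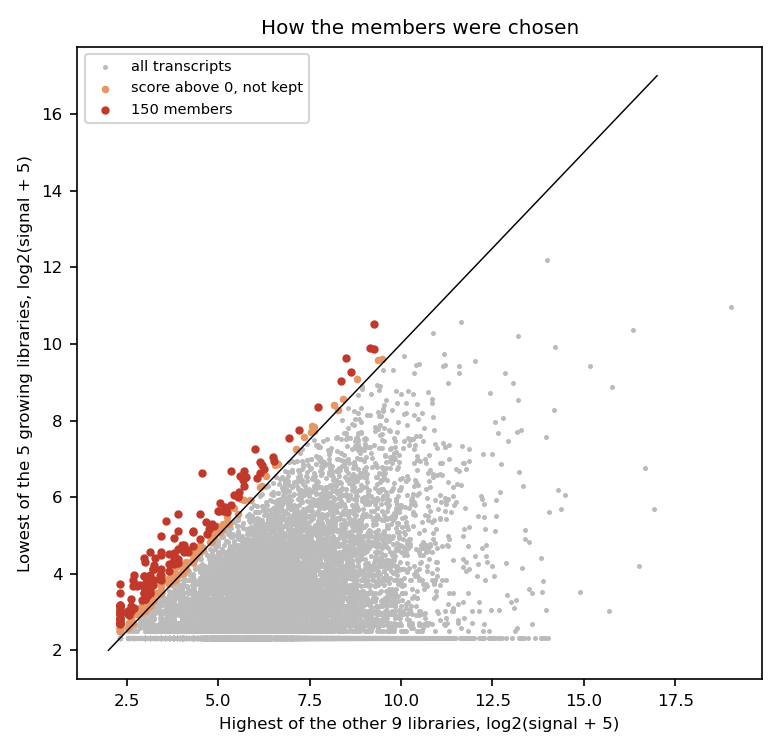
Each point is a transcript, with the highest of the other 9 libraries on the x axis and the lowest of the 5 growing libraries on the y axis, both as log2(normalised signal + 5). The 311 transcripts above the diagonal have a score above 0, and the 150 members (red) lie farthest above it, mostly at low signal.

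Plants grow from meristems, groups of dividing cells at the tips of shoot and root. Cells leaving the root meristem elongate and take on the form of cortex or vascular tissue in the developing root, and cells leaving the shoot apex form new needles. Growing plant tissues are known for making ribosomes, histones, tubulins and wall-loosening proteins. The table names transcripts by assembly identifiers and pairs none with a gene, so no role can be given to a member and 0 gene lists were tested. For the same reason the tissue labels could not be checked against marker genes. Of the members, 103 had identifiers starting isotig (68.7%, against 68.5% of the table), 46 unigene (30.7% against 30.6%) and 1 PUT. Identifiers of different kinds may stand for the same gene, which was not tested.

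Libraries held 519134 reads (hypocotyl cortex) to 1536389 reads (root vascular tissue). The normalised signal is a read count divided by the library's size and by a factor for its composition. It is not divided by transcript length, so it is compared here between libraries, and an order among transcripts is an order of reads. What 1 read was worth ran from 0.652 in the root meristem and 0.709 in emerging needles, through 1.04 in developing root vascular tissue, 1.33 in the apical meristem and 1.56 in developing root cortex, to 2.96 in root cortex and 3.76 in hypocotyl cortex. In bulk tissue a smaller share of expressing cells and less RNA per cell cannot be told apart.

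The summed signal of the members was 28778 in the root meristem, 15549 in the apical meristem, 15307 in emerging needles, 14903 in developing root cortex and 13670 in developing root vascular tissue (mean 17641 ± 6267, SD, n = 5). In the other 9 libraries the sum ran from 1496 in hypocotyl cortex through 1734 in cotyledon vascular tissue, 1867 in young needle mesophyll, 1871 in cotyledon mesophyll, 1891 in root vascular tissue, 2499 in hypocotyl pith, 2900 in hypocotyl vascular tissue and 2938 in young needle vascular tissue to 3135 in root cortex (mean 2259 ± 612, SD, n = 9). The lowest growing library lay 4.36 times above the highest of the others, a gap that the choice of members built in. Within the growing set the root meristem stood apart and the remaining 4 lay close together. As a share of recovered reads the members took 3.78% of the root meristem library (95% Wilson interval 3.74 to 3.81%), 2.62% of emerging needles (2.58 to 2.65%), 1.93% of developing root vascular tissue (1.90 to 1.96%), 1.80% of developing root cortex (1.76 to 1.83%) and 1.11% of the apical meristem (1.09 to 1.13%). Among the other 9 the shares lay between 0.0767% in hypocotyl cortex (0.0695 to 0.0846%) and 0.451% in young needle vascular tissue (0.437 to 0.465%). Intervals cover counting error only, since amplified cDNA reads are not independent molecules. A few members carried much of the sum: the 4 with the most signal made up 41.1% of it in the growing libraries and 45.7% in the others.

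**Figure D2:**
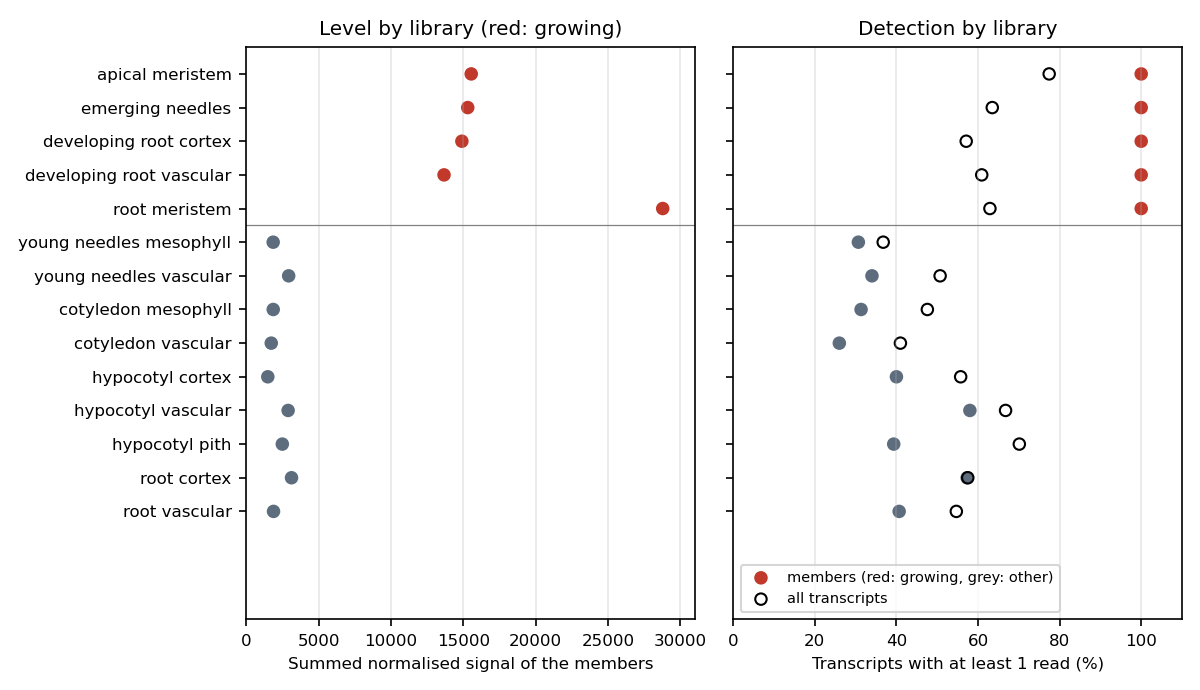
Left, the summed normalised signal of the 150 members in each of the 14 libraries, with the root meristem at 28778 and the other growing libraries between 13670 and 15549. Right, the percentage of members (filled) and of all transcripts (open) with at least 1 read. Members lay below all transcripts in each of the other 9 libraries, which the choice of low signal there favours. The gap was widest in the hypocotyl pith (39.3% against 70.1%) and smallest in root cortex (57.3% against 57.5%).

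The first members described are those with the highest scores. isotig48098 (score 2.07) had a signal of 298 in the root meristem, 108 in the apical meristem, 107 in emerging needles, 105 in developing root cortex and 93.2 in developing root vascular tissue. In the other 9 libraries it ran from 0 through a median of 3.76 to 18.4 in root vascular tissue, with 17.8 in root cortex and 16.1 in young needle vascular tissue. The 5 growing libraries lay at least 5.06 times above every other, and 4 of them were nearly level, with the root meristem alone above. isotig26406 (score 1.79) had a signal of 106 in the root meristem, 71.8 in the apical meristem, 67.1 in developing root cortex, 48.2 in emerging needles and 36.2 in developing root vascular tissue. It had reads in 3 of the other 9 libraries, at 6.90 in young needle vascular tissue, 5.92 in root cortex and 2.23 in hypocotyl vascular tissue. Vascular tissue and root cortex held the highest values of both outside the growing tissues.

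isotig00605 had the most signal of all members and a different profile, with reads everywhere. Its signal was 3872 in the root meristem, 1827 in developing root cortex, 1757 in the apical meristem, 1541 in emerging needles and 1459 in developing root vascular tissue. Elsewhere it ran from 78.0 in cotyledon vascular tissue through a median of 252 to 612 in young needle mesophyll. The means were 2091 ± 1007 (SD, n = 5) and 267 ± 162 (SD, n = 9), a ratio of 7.83, and the groups were 2.38-fold apart at their nearest.

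The edge of the set lay at low signal. The last member kept, isotig46157 (score 0.35), had 23, 8, 6, 4 and 3 reads in emerging needles, developing root vascular tissue, developing root cortex, root meristem and apical meristem, and 1 read in the pith. The first transcript left out, isotig33932 (score 0.34), had 44, 21, 12, 7 and 2 reads in the root meristem, apical meristem, emerging needles, developing root vascular tissue and developing root cortex, and 1 read in root vascular tissue. The order of the pair rests on a value from 1 read in each.

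Counting error set how firmly single members can be read. The fewest reads of a member in any growing library had a median of 9 and ran from 1 to 1170, and 78 of the 150 had fewer than 10 there. For 18 members the exact 95% Poisson intervals of all 5 growing libraries lay above those of all other 9, with 3 reads as the upper limit where a library had none. Of these 18, 17 had a mean signal of at least 100 in the growing libraries. The members were chosen for this gap, and the intervals were not computed for the rest of the table. The 18 therefore have no share over all transcripts beside them and describe precision only. With at least 10 reads asked for in each growing library, 141 transcripts of the table had a score above 0, and 72 members were among them.

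The members fell along a scale from transcripts seen only in growing tissue to transcripts present everywhere and raised there. The choice favoured few reads in the other 9 libraries. The counts of this scale have no share over all transcripts beside them and only describe the members. At the first end, 25 had no reads in the other 9 libraries. Their mean signal in the growing libraries was 8.44 to 35.8, from 47 to 185 reads over the 5, with a median of 83. Another 48 had reads in 1 or 2 of the other 9, and 58 in 3 to 8. At the far end, 19 had reads in all 9, and these carried 64.8% of the members' signal in the growing libraries. For those 19, the mean over growing libraries was 3.58 to 9.86 times the mean over the others, with a median of 5.73. For the 58 the ratio had a median of 14.2 and for the 48 of 47.5. Blocks with more signal had smaller median ratios, partly by definition, since the blocks are set by reads on the lower side of the ratio. The reads behind the lower side of the ratio differed as well: over the other 9 libraries the 48 members had 1 to 11 reads each (median 2), the 58 had 4 to 306 (median 18.5) and the 19 had 36 to 2528 (median 433).

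**Figure D3:**
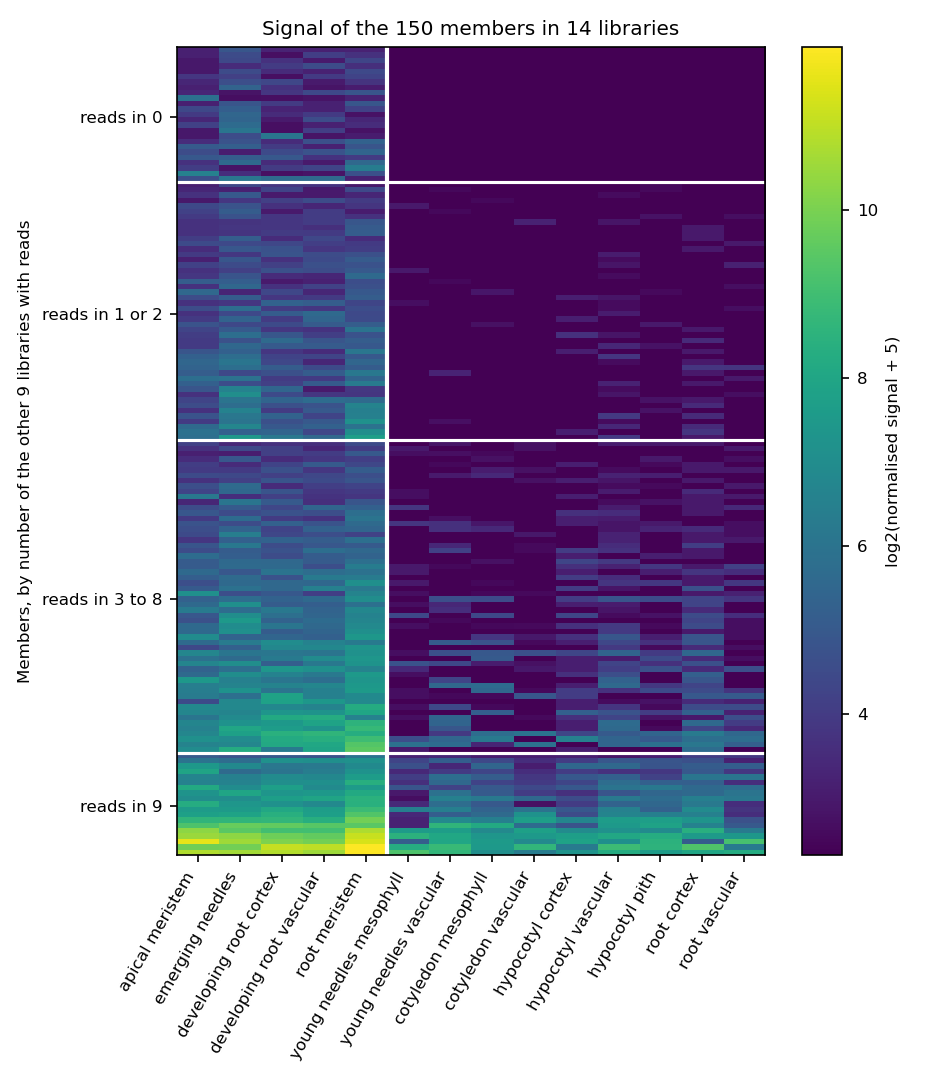
Rows are the 150 members in 4 blocks by how many of the other 9 libraries held reads (25, 48, 58 and 19 members), sorted by mean signal within a block. Columns are libraries with the 5 growing ones at the left, and colour is log2(normalised signal + 5). Signal in growing libraries increases from the block without reads elsewhere to the block with reads everywhere.

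The leading library changed along the same scale. Emerging needles were the highest of the 5 growing libraries for 15 of the 25 members without reads elsewhere and for 21 of the 48 with reads in 1 or 2 other libraries. In the block with 3 to 8, the root meristem led for 31 of 58 and emerging needles for 12. Among the 19 members present everywhere the root meristem led for 13 and emerging needles for 1. Over all 150, the root meristem was highest for 69 (46%), emerging needles for 49 (32.7%), the apical meristem for 12 (8%), and each developing root library for 10. Among the 9454 transcripts with reads in all 5 growing libraries the highest was the root meristem for 17.8%, emerging needles for 27.6%, the apical meristem for 24.2%, developing root vascular tissue for 16.1% and developing root cortex for 14.3%. Emerging needles and the root meristem were also the libraries where 1 read was worth least, and the part of this in the leading counts was not tested. With at least 10 reads in each growing library the root meristem led for 42 of 72 members, and of the 34 members with a mean of 100 or more it led for 23. In plain CPM, scaled to library size without the factors for composition, the root meristem led for 60 members, emerging needles for 66 and the apical meristem for 3. That scaling gave the root meristem 19.0% and emerging needles 36.6% of the 9454 transcripts.

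Root and shoot tips were nearly balanced over the set. The difference between the mean of the 3 root tip libraries and the mean of the 2 shoot tip libraries, on the log2(signal + 5) scale, had a median of 0.0047 over the members and ran from -1.80 to 2.13. It was above 0 for 75 and below 0 for 75, and in plain CPM above for 90 and below for 60. A difference of 2-fold or more was seen for 16 members toward the root (10.7%) and 19 toward the shoot (12.7%). Over the 9454 transcripts it was 15.9% and 14.8%. The rule reads this contrast, so it is given as a description. The balance was not the same at all levels: the median was -0.56 for the 25 members without reads elsewhere and 0.33 for the 19 present everywhere. unigene6724 leaned most to the root, at 152 in the root meristem, 106 in developing root vascular tissue and 105 in developing root cortex, against 33.3 in emerging needles and 15.9 in the apical meristem. Its highest value elsewhere was 10.0, in hypocotyl vascular tissue. isotig42715 leaned most to the shoot, at 46.8 in emerging needles and 13.3 in the apical meristem, against 6.52, 4.14 and 1.56 in the root meristem, developing root vascular tissue and developing root cortex. The last 3 values rest on 10, 4 and 1 reads, and the other 9 libraries had none.

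The 2 meristems stood differently to the growing tissue next to them. In the root, the meristem was above the mean of both developing root libraries for 116 members and below for 34, with a median difference of 0.74 on the log2(signal + 5) scale. A total of 55 members (36.7%) were 2-fold or more higher in the root meristem and 3 (2%) lower, against 18.4% and 13.6% of the 9454 transcripts, whose median was 0.10. In the shoot, the apical meristem was above emerging needles for 46 members and below for 104, with a median of -0.52. There 11 members (7.33%) were 2-fold or more higher in the meristem and 51 (34%) lower, against 29.1% and 32.5% of the 9454, whose median was -0.17. Each of these differences is between single libraries or their mean and has no replicate. The difference in the shoot went with low signal: for the 72 members with at least 10 reads in each growing library its median was -0.13, and for the 34 with a mean of 100 or more it was -0.0026. In the root the median was 0.92 for the 72 and 1.01 for the 34. Plain CPM moved the median of all transcripts in the shoot contrast to -1.09. Relative to the median of all, the members' median was -0.35 as deposited and -0.52 in plain CPM. For the 34 members of high signal it was 0.17 as deposited and -0.13 in plain CPM, so its direction flipped with the scaling. In the root contrast the members' median relative to all transcripts was 0.65, against 0.64 as deposited. A total of 75 members (50%) were higher in the root meristem than in the mean of the developing root and lower in the apical meristem than in emerging needles, as were 27.4% of the 9454 transcripts. Set directly against the apical meristem, the root meristem was 2-fold or more higher for 66 members (44%) and lower for 7 (4.67%), against 25.9% and 19.7% of the 9454.

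**Figure D4:**
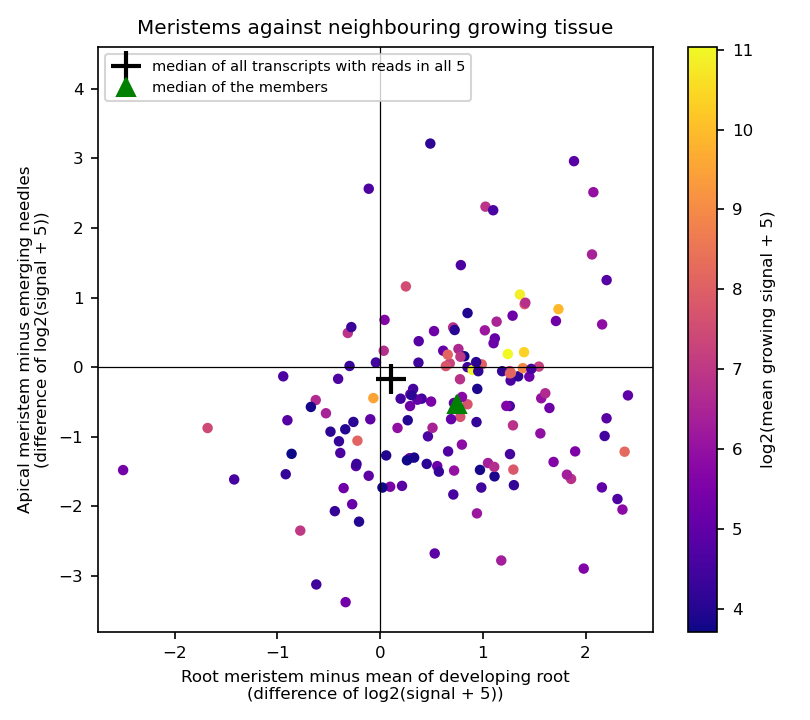
Each point is a member, coloured by its mean signal in the growing libraries. The x axis is the root meristem minus the mean of the developing root libraries and the y axis the apical meristem minus emerging needles, both as differences of log2(signal + 5). The median of the members (triangle) lies at 0.74 and -0.52, and that of all 9454 transcripts (cross) at 0.10 and -0.17.

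A test of both meristems against the other 3 growing libraries, with the axis (root or shoot) as a term, asked whether members shared a meristem difference. It used limma across all 7383 transcripts at a signal of 10 or more in at least 3 of the 5 libraries. The p-values measure the spread between tissues, as no tissue was replicated. No transcript passed a Benjamini-Hochberg adjusted p of 0.05 in either direction (0.00% of those tested; lowest limma adjusted p = 0.376), and edgeR called 0. At an unadjusted p under 0.05 limma had 536 higher (7.26%) and 336 lower (4.55%) in meristems, while edgeR leaned the other way with 221 higher and 300 lower, as did limma in plain CPM with 249 and 503. DESeq2 called 99, none of them a member. Of the 150 members 124 were tested, and 3 were higher and 1 lower at an unadjusted p under 0.05. Their median log2 fold change was 0.27, against 0.05 for all transcripts tested, with a median standard error of 0.76. In plain CPM these medians were -0.17 and -0.36, so the members' sign flipped. The members' median also moved with single libraries, to 0.78 without the apical meristem, 0.79 without emerging needles and -0.45 without the root meristem. The medians for all were 0.14, 0.17 and -0.23. The first 2 fits hold the same contrast, root meristem against developing root, since the axis term takes up the lone shoot library. They differ only in the transcripts past the filter. The last fit sets the apical meristem against emerging needles. In all 3 the only spread was that between the 2 developing root libraries. unigene146849 had the largest fold change toward the meristems, at 137 in the apical and 93.9 in the root meristem against 26.5 in developing root cortex, 19.8 in emerging needles and 12.4 in developing root vascular tissue. Its 2 meristem values lay above the other 3, with a log2 fold change of 2.26 ± 0.76 (SE) and a limma adjusted p of 0.393. isotig19501 had the largest in the other direction, at 64.5 in emerging needles, 45.6 in developing root vascular tissue and 45.3 in developing root cortex against 19.9 in the apical and 3.91 in the root meristem. Its log2 fold change was -2.06 ± 0.77 (SE), with a limma adjusted p of 0.403. It had no reads in the other 9 libraries.

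**Figure D5:**
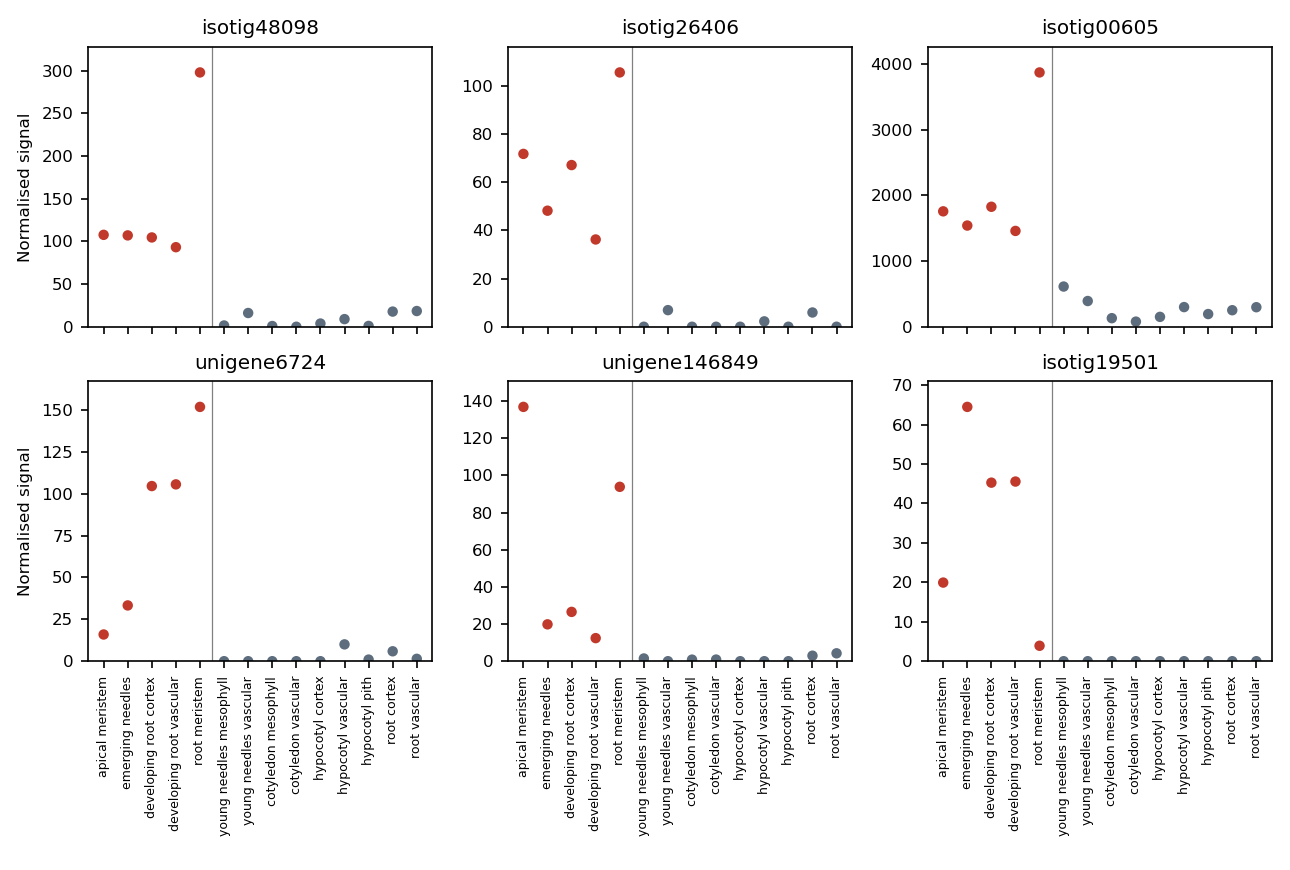
Normalised signal of 6 members in the 14 libraries, with growing libraries in red and the others in grey, each panel on its own linear axis from 0. isotig48098, isotig26406 and isotig00605 peak in the root meristem, unigene6724 in the 3 root tip libraries, unigene146849 in both meristems and isotig19501 outside them.

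Whether the meristem difference itself differed between root and shoot was tested as an interaction, chosen after the counts above had been seen. No transcript passed (lowest limma adjusted p = 0.0737), with 798 higher (10.8%) and 1028 lower (13.9%) at an unadjusted p under 0.05. In plain CPM that split turned round, to 1680 higher and 475 lower. Of the 124 members tested, 22 were higher and 0 lower at that unadjusted level, and the lowest limma adjusted p among them was 0.0923. Their median difference was 1.05, against 0.25 for all transcripts tested. In plain CPM 133 members and 8183 transcripts were tested. Of the members 56 were higher and 0 lower at the unadjusted level, against 1680 and 475 of all. The medians were 2.18 for the members and 1.20 for all. The only spread this fit has is that between the cortex and vascular libraries of the developing root. Those libraries were alike over the members, with a Spearman correlation of 0.833, and lie in the same organ.

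Developing root cortex and vascular tissue differed little over the set. The choice asked for a high signal in both, which may favour small differences. A difference of 2-fold or more was seen for 13 members toward vascular tissue (8.67%) and 11 toward cortex (7.33%), against 13.0% and 10.4% of the 9454 transcripts. The median difference was -0.08 on the log2(signal + 5) scale and 0.10 in plain CPM, so its direction flipped with the scaling. The median of the 9454 transcripts moved as well, from 0.02 to 0.20. Relative to it the members' median was -0.10 in either scaling. Across the 150 members the Spearman correlation between growing libraries ran from 0.645 for apical meristem with emerging needles, through 0.772 for the 2 meristems and 0.804 for root meristem with developing root vascular tissue, to the 0.833 of the developing root pair. Over the 9454 transcripts the same pairs had 0.264, 0.589, 0.681 and 0.748. These correlations describe libraries over transcripts chosen to be high in all of them. Over the whole table the root tip libraries also held nearly all of each other's abundant transcripts. Of the 1056 with at least 200 reads in the root meristem, 1 had no reads in developing root cortex and 1 none in developing root vascular tissue. Of the 704 in the apical meristem, 21 had none in emerging needles, 50 none in developing root cortex, 42 none in developing root vascular tissue and 23 none in the root meristem. The labels do not say which libraries shared a sequencing plate, and the part of reads carried between libraries was not tested.

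Outside the growing tissues the members left a faint and uneven trace. The number of members with reads was 87 in hypocotyl vascular tissue (58%), 86 in root cortex, 61 in root vascular tissue, 60 in hypocotyl cortex, 59 in hypocotyl pith, 51 in young needle vascular tissue, 47 in cotyledon mesophyll, 46 in young needle mesophyll and 39 in cotyledon vascular tissue (26%). Every transcript of the table counted, the pith held reads for 70.1%, more than hypocotyl vascular tissue (66.8%) or root cortex (57.5%). Root cortex was the highest of the 9 for 34 members and hypocotyl vascular tissue for 24. These counts have no share over all transcripts beside them and were not made in plain CPM. They are not read as a trait of the members. In root cortex 16 of the 34 rested on 1 to 3 reads, where a read is worth 2.96. Over the 125 members with reads in any of the 9, the highest value rested on 1 to 3 reads for 57 and on 10 or more for 40. For the 19 members present everywhere these limits matter less. Relative to the mean over growing libraries, their median level was 26.3% in root cortex, 24.5% in hypocotyl vascular tissue, 22.0% in young needle vascular tissue, 20.2% in hypocotyl pith and 13.6% in cotyledon mesophyll. It was 10.2% in hypocotyl cortex, 9.82% in young needle mesophyll, 8.70% in root vascular tissue and 8.06% in cotyledon vascular tissue. The order depended on the factors for composition: in plain CPM young needle vascular tissue was first at 26.5%, ahead of hypocotyl vascular tissue at 22.6%, hypocotyl pith at 15.7%, cotyledon mesophyll at 14.3% and root cortex at 12.5%. In 4 ordered pairs of libraries, no transcript that reached 200 reads in one library was missing from its partner. These were young needle with hypocotyl vascular tissue (878 transcripts), cotyledon mesophyll with hypocotyl pith (741), and hypocotyl cortex (237) and root cortex (203) with the apical meristem. The part of carried reads in these levels was not tested.

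Vascular and ground tissue were compared within young needles, cotyledons, hypocotyl and root, an order among the other libraries that the choice of members leaves free. The summed signal of the members was higher in vascular tissue in young needles (2938 against 1867) and hypocotyl (2900 against 1496), and lower in cotyledons (1734 against 1871) and root (1891 against 3135). In the hypocotyl 28 members (18.7%) were 2-fold or more higher and 4 (2.67%) lower in vascular tissue, against 38.6% and 15.5% of the 9454 transcripts. In young needles the members were 23 (15.3%) and 4 (2.67%), against 39.2% and 19.7%. In cotyledons they were 5 (3.33%) and 14 (9.33%), against 19.6% and 28.2%, and in root 4 (2.67%) and 32 (21.3%), against 24.1% and 30.7%. All transcripts thus leaned the same way as the members in each organ, and both kept those directions in plain CPM. The smaller shares of the members are not read as a result. The choice kept members low in these libraries, at median signals of 0 to 2.96. With 5 added, a 2-fold difference is hard to reach there. With organ as a term, limma called 28 of 9357 transcripts higher (0.299%) and 10 lower (0.107%) in vascular tissue at an adjusted p under 0.05. In plain CPM the split was 43 higher and 5 lower. Of the 150 members 35 passed the filter of 10 or more in at least 3 of the 8 libraries, and 0 were called (lowest limma adjusted p = 0.527) or had an unadjusted p under 0.05. At that unadjusted level 7.64% of all transcripts tested were higher and 3.70% lower. The members' median log2 fold change was 0.10, against 0.29 for all transcripts tested, with a median standard error of 1.09. It was -0.10 with quantile normalisation, against a median of all near 0. With 1 library left out it ran from -0.36 without hypocotyl vascular tissue, where that of all was 0.12, to 0.49 without either root library, where that of all was 0.41 without root cortex and 0.42 without root vascular tissue. edgeR called 15 transcripts and DESeq2 400, none of them a member. The count of 38 was 0 without young needle vascular or hypocotyl vascular tissue, 2 without young needle mesophyll or hypocotyl cortex, 10 without cotyledon vascular tissue, 16 without cotyledon mesophyll, 85 without root cortex and 86 without root vascular tissue, with 0 members in each. It was 11 without the organ term.

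Of the members tested there, unigene2435 had the largest fold change toward vascular tissue. It stood at 562 in root vascular tissue against 29.6 in root cortex and at 256 against 30.8 in young needles, but at 110 against 182 in cotyledons and 134 against 229 in the hypocotyl. Vascular tissue was higher in 2 of 4 organs (log2 fold change 1.36 ± 1.05 SE, limma adjusted p = 0.702). In the growing libraries the same transcript had 3093 in the apical meristem, 2603 in the root meristem, 1497 in emerging needles, 1088 in developing root cortex and 938 in developing root vascular tissue. isotig43661 had the largest in the other direction, with no reads in vascular tissue of young needles or cotyledons against 16.1 and 16.0 in their mesophyll, 1.12 against 15.0 in the hypocotyl and 7.08 against 17.8 in the root. Ground tissue was higher in 4 of 4 organs (log2 fold change -1.69 ± 0.96 SE, limma adjusted p = 0.527), with 11, 19, 4 and 6 reads in the ground tissue of young needles, cotyledons, hypocotyl and root.

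Root against shoot was compared in the same 8 libraries, with tissue group as a term. limma called 134 of 9357 transcripts higher (1.43%) and 70 lower (0.748%) in root at an adjusted p under 0.05. The split was 36 higher and 71 lower in plain CPM, 87 and 81 with quantile normalisation, 74 and 91 with a pseudocount of 1, and 141 and 32 with one of 25. Of the 35 members tested 0 were called (lowest limma adjusted p = 0.489) and 0 had an unadjusted p under 0.05, where 9.45% of all transcripts tested were higher and 4.15% lower. Their median log2 fold change was 0.43, against 0.10 for all transcripts tested, with a median standard error of 1.25. edgeR called 32 and DESeq2 595 transcripts, again none of them a member. The count of 204 was 1 without root cortex, 33 without root vascular tissue and 120 without hypocotyl vascular tissue, with 0 members in each. Plain CPM moved the median of all transcripts to -0.65 and that of the members tested to -0.26, so the members' sign flipped while they stayed above the median of all. Without root cortex the members' median was -0.45, below that of all at -0.30, and without root vascular tissue it was 1.23, above that of all at 0.16. Without cotyledon vascular tissue it was 0.09, against 0.07 for all. isotig18769 had the largest fold change toward the root, at 28.3 in root vascular tissue and 26.6 in root cortex against 25.4 in cotyledon vascular tissue, 11.3 in hypocotyl cortex and at most 1.47 in the other 4 shoot libraries (log2 fold change 1.85 ± 1.14 SE, limma adjusted p = 0.489). isotig25207 had the largest toward the shoot, at 46.3 in cotyledon mesophyll, 43.5 in hypocotyl vascular tissue, 42.9 in young needle vascular tissue and 3.76 in hypocotyl cortex, with no reads in young needle mesophyll or cotyledon vascular tissue, against 14.8 in root cortex and 0 in root vascular tissue. Its groups overlapped (log2 fold change -0.79 ± 1.25 SE, limma adjusted p = 0.813), and without root vascular tissue the value was 0.60.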

How the data were processed

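The authors deposited a table of normalised signal for 23493 transcripts in 14 libraries. The submitters' processing notes name FastQC, BWA and edgeR without versions, and the reference and the filter on low transcripts are not given in the sources used here. Whole reads were recovered: dividing each library's values by its signal per read gave a whole number within 0.001 for 100% of them. The deposited signal is thus CPM divided by a composition factor of 0.460 to 1.71 per library, and plain CPM leaves that factor out. Members and comparisons were chosen with earlier results of these data known.

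Tests used limma 3.58.1 (R 4.3.3) on log2(signal + 5) with a mean trend, and Benjamini-Hochberg adjusted p under 0.05 over all transcripts tested. They were tested on simulated data. The 5 added before the logarithm understates fold changes of low transcripts. edgeR 4.0.16 and DESeq2 1.42.0 on recovered reads were alternatives. edgeR's quasi-likelihood test called 0, 15 and 32 transcripts in the comparisons of meristem, vascular tissue and root. Other alternatives changed the value added, filter, scaling, block terms and libraries. Named members are the 2 highest scores, both sides of the limit, the most signal, the extremes of root tip against shoot tip, and the largest fold change each way per comparison, since none passed. 0 columns were left out. No sequence is shown.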

Additional observations from a re-analysis of the deposited data

Results flagged for a closer look

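Each named transcript, the summed level and the number of members with reads were screened, among the 5 growing and the other 9 libraries, for a library whose gap to its nearest neighbour took up most of the range (Dixon's 95% limit). Of 30 such sets 7 were marked, where chance marks about 1 in 20 independent sets, and these sets are not independent. A set with only 1 value above 0 is always marked, and a set of equal values cannot be. The 7 are therefore not read as an excess over chance. The root meristem was marked for the summed level of the members (28778), for isotig48098 (298), for isotig00605 (3872) and for isotig25207 (171), each time as the highest of the growing libraries. Emerging needles were marked for isotig42715 (46.8). The pith was marked for isotig46157 (0.962) and root vascular tissue for isotig33932 (1.42), in each case from 1 read with none in the other 8 libraries.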

How the results depend on the processing

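The number of members past the threshold was 0 in every alternative run for the comparisons of meristem, vascular tissue and root, except for 0 to 3 with 1 library left out of the meristem comparison. For the interaction it was 0 in the 3 alternatives run, pseudocounts of 1 and 25 and plain CPM. In the meristem comparison the count over all transcripts was 99 with DESeq2 and 0 to 1191 with 1 library left out. The highest count of members and that of all transcripts both came from the fit without the root meristem. That fit tested 6002 transcripts, 107 of them members. It keeps only the apical meristem as a meristem library, so neither count is read as a result. Without the axis term (no replicate block) the count in the meristem comparison was 0. For vascular against ground tissue the 38 became 15 with a pseudocount of 25, 0 without a filter, 61 with quantile normalisation, 11 with no replicate block (no organ term), 15 with edgeR, 400 with DESeq2 and 0 to 86 with 1 library left out (2 without young needle mesophyll or hypocotyl cortex, 16 without cotyledon mesophyll, 85 without root cortex). For root against shoot the 204 became 9 without a filter, 107 in plain CPM (36 higher and 71 lower, against 134 and 70), 32 with edgeR, 595 with DESeq2 (224 higher and 371 lower) and 1 to 239 with 1 library left out (120 without hypocotyl vascular tissue, 33 without root vascular tissue). The block terms are organ, axis or tissue group; the labels number no replicates. The 311 transcripts with a score above 0 became 141 with at least 10 reads in each growing library and 327 to 560 with 1 library left out (525 without the apical meristem, 529 without root cortex). Members led by the root meristem fell from 69 to 42 and 23 because fewer members were counted. Plain CPM kept 87 of the 150 members among the highest scores. The ratio of the summed level between growing and other libraries, 7.81, ranged from 6.58 to 9.99. isotig25207 changed sign to 0.60 without root vascular tissue. The causes were not tested. Depth limits most single members, since 78 of 150 had fewer than 10 reads in a growing library.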
